A study of Homo sapiens with 6 samples.

Results

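The apolipoprotein L (APOL) genes form a cluster on human chromosome 22, and its 6 members, APOL1 to APOL6, were followed here among 19103 autosomal protein-coding genes in ATAC-seq peak lists. ATAC-seq uses the transposase Tn5 to cut open DNA, so a peak marks accessible chromatin. The members were chosen by gene name, with the called peaks and areas of these same lists already known, so all values below are descriptions. Every peak overlapping a gene body (GENCODE release 44, hg38) plus 20 kb on each side was counted. The cells were MCF-10A, a non-tumorigenic human breast epithelial line. The groups were a PIK3CA E545K knock-in (helical domain of the catalytic PI3K subunit), a PIK3CA H1047R knock-in (kinase domain), and parental cells with wild-type PIK3CA (WT), with 2 samples each. Knock-in cells were kept without epidermal growth factor (EGF) and WT cells with 20 ng/ml EGF. All of them spent the last 24 h in 1% charcoal-stripped serum with 0.2 ng/ml EGF, insulin, hydrocortisone and cholera toxin. Genotype and maintenance medium therefore cannot be told apart, and the labels do not say how many clones a knock-in line stands for.

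Each genotype has 1 peak list from its 2 samples together, so no value per sample, no replicate spread and no test between genotypes could be had, and sequencing depth is unknown. All differences below describe 3 pooled lists. The E545K list held 89416 peaks, the H1047R list 106747 and the WT list 98910. Markers were checked against the epithelial label: 6 of 7 basal and 6 of 7 luminal or general epithelial markers had a promoter peak in each list, as did 65.5% of all promoters, against none of 6 T and B cell markers in any list. Basal TP63 and luminal KRT19 had no promoter peak in any list. Of 4 myeloid, 5 fibroblast and 4 endothelial markers, 1 each was open at its promoter throughout (CD14, COL1A1 and KDR). Of 3 hepatocyte markers none was, although APOA1 had a promoter peak in E545K and H1047R. Of the other markers, myeloid SPI1 had one in E545K only, fibroblast PDGFRA in E545K and WT, and endothelial CDH5 in WT only. By deposited peak area CD14 had 2883 in E545K, 6149 in H1047R and 2988 in WT, and COL1A1 5279, 5546 and 6016. In the same lists epithelial KRT8 had 4237, 4389 and 6074, and basal KRT14 only 320, 231 and 377. A peak list cannot show the PIK3CA edits, and each genotype is taken from its label.

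APOL1 is secreted, travels on high-density lipoprotein and kills trypanosomes with a pore-forming domain that resembles those of bacterial colicins. APOL2, APOL3 and APOL6 act inside cells, where APOL3 dissolves the membranes of bacteria in the cytosol and APOL6 can promote cell death. Several members are induced by interferon-gamma and tumour necrosis factor. The cluster falls into separate stretches. APOL6 (ENSG00000221963.6, chr22:35648446-35668404, plus strand) and APOL5 (ENSG00000128313.2, chr22:35717872-35729483, plus strand) lie apart from the rest, across the gene of the splicing factor RBFOX2. APOL3 (ENSG00000128284.20, chr22:36140329-36166177), APOL4 (ENSG00000100336.18, chr22:36189124-36204840) and APOL2 (ENSG00000128335.14, chr22:36226209-36239954), all on the minus strand, are followed by APOL1 (ENSG00000100342.22, chr22:36253071-36267530) on the plus strand. The windows of APOL3, APOL4, APOL2 and APOL1 overlap. A peak in several windows was counted once in totals over the cluster, and in each of its windows in values per gene.

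The members divided into genes with an open start and genes without one. A peak overlapped the canonical start plus and minus 1 kb of APOL1, APOL2, APOL3 and APOL6 in each list, and no list had one at APOL4 or APOL5. No member thus had a promoter peak in some lists only. Over all 19103 promoters, 1.72% had a peak in E545K and not in WT and 1.41% the reverse, and 1.79% had one in H1047R and not in WT and 1.03% the reverse. Between the knock-ins, 1.35% had a peak in E545K and not in H1047R and 1.8% the reverse. A promoter peak was present at 67.7% of all promoters in E545K, 68.1% in H1047R and 67.4% in WT, against 4 of the 6 members in each list.

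APOL2, whose protein is cytosolic, had the strongest of these promoter peaks. A peak's area, as the authors' caller wrote it, sums its curve over the whole peak and so depends on both width and height, and each list has its own scale. The APOL2 peak had an area of 1873 in E545K, 2847 in H1047R and 2737 in WT, which placed it at the 80.6, 88.5 and 87.4 percentile of its list. Its width was 1191 bp in E545K, 1683 bp in H1047R and 1536 bp in WT, and its summit lay at the same base in each list, 120 bp upstream of the canonical start. Among promoters with a peak, the APOL2 peak lay below the median area in all lists, at the 26.1 percentile in E545K, 36.7 in H1047R and 36.7 in WT. Promoter peaks of APOL1, APOL3 and APOL6 all lay lower by this measure, between the 2.22 and 12.6 percentile.

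At APOL1, the gene of the secreted trypanolytic factor, the promoter peak stood at the lowest percentile of its list in E545K and the highest in WT. Its area was 440 in E545K, 562 in H1047R and 694 in WT, at the 36.4, 44.9 and 52.4 percentile of each list. The peak was 478 bp wide in E545K, 713 bp in H1047R and 732 bp in WT, with summits within 1 bp of each other. At APOL3 the order was another, with H1047R on top: the area at the canonical start was 306 in E545K, 603 in H1047R and 346 in WT, at the 20.4, 47.7 and 24.1 percentile. APOL6 had a wide promoter peak in E545K (1395 bp, area 1020), a pair of peaks in H1047R (557 bp, area 654, and 636 bp, area 375) and a single narrow peak in WT (576 bp, area 579). The extra stretch inside the gene had its summit 525 bp downstream of the start in E545K and 523 bp downstream in H1047R. WT had no peak at that position, and the WT summit lay 65 bp upstream of the start. Both peaks of the APOL6 pair in H1047R overlapped the single E545K peak.

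**Figure D1:**
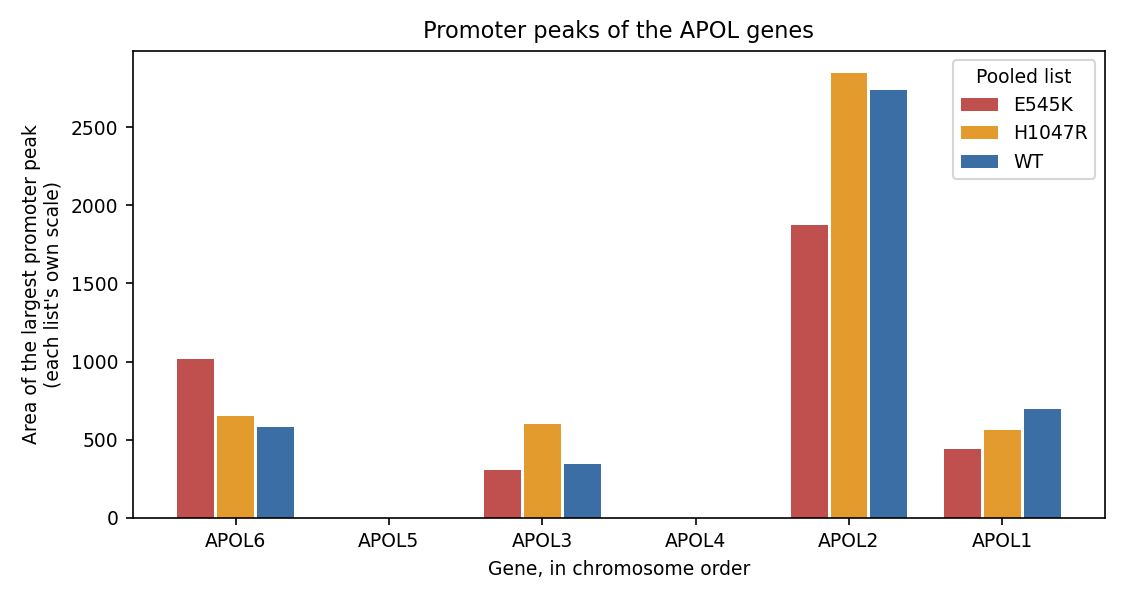
Area of the largest peak overlapping the canonical start plus and minus 1 kb (vertical axis, each list's own scale) for the APOL genes in chromosome order, with bars for the pooled E545K, H1047R and WT lists and no error bars, since the lists hold no replicate values. APOL2 stands highest in each list (1873, 2847 and 2737), and APOL4 and APOL5 have no bar.

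APOL3 has a further set of starts. Besides the canonical start at base 36160755, GENCODE places 5 transcript starts between bases 36156885 and 36156949, within the gene. A peak over these internal starts was called in H1047R (chr22:36156505-36157015, area 482) and in WT (chr22:36156698-36157023, area 205), and none was called in E545K. Just upstream of them every list had a narrow peak, of area 281 in E545K, 469 in H1047R and 325 in WT. H1047R had the largest deposited area at each of these sites. Of the APOL3 gene body, E545K peaks covered 1.66%, H1047R peaks 4.56% and WT peaks 5.04%.

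In all, the windows held 15 peaks in E545K, 19 in H1047R and 22 in WT, which merged into 23 regions. Of these, 14 had a peak in each list (60.9%, against 61.2% of all 120615 regions), 4 in WT only (6.73% of all regions), 3 in H1047R and WT (9.76%), 1 in E545K and WT (2.13%) and 1 in H1047R only (11.0%). No region of the cluster had a peak in E545K only, or in both knock-ins and not in WT, classes that hold 4.52% and 4.62% of all regions. The stretch inside APOL6 without a WT peak is not a region of its own, because the wide E545K peak joined it to the promoter. APOL5 had the fewest peaks in its window in every list, and APOL4 the next fewest in E545K and H1047R but not in WT. The APOL4 window held 2 peaks in E545K, 3 in H1047R and 5 in WT, and the APOL5 window 1, 2 and 2. Over all genes, whatever their length, the median was 4, 5 and 5. On the APOL4 gene body itself a peak was called in WT alone.

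The comparison of E545K with WT asked which peaks were present in cells with the helical-domain mutation and not in WT, and the reverse. A peak had a partner when a peak of the other list overlapped it by at least 1 bp. None of the 15 E545K peaks lacked a WT partner, against 12.6% of the whole E545K list, and the exact 95% interval of 0 of 15 reaches 21.8% (intervals cover counting error only). Among 22 WT peaks, 7 were without an E545K partner (31.8%, exact interval 13.9 to 54.9), against 20.3% of the whole WT list. Both intervals held the share of the whole list, but they treat neighbouring peaks of 1 pooled list as independent. With so few peaks they are too wide to show likeness to that list. The 7 were weak, with areas of 203 to 372, and 6 of them were under 300. Of all WT peaks with an area under 300, 61.6% lacked an E545K partner, so 6 of the 9 such WT peaks at the cluster lay close to the list as a whole.

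The comparison of H1047R with WT put that question to the kinase-domain line. Among 19 H1047R peaks, 2 were without a WT partner (10.5%, exact interval 1.3 to 33.1), against 17.9% of the whole H1047R list. Among 22 WT peaks, 5 were without an H1047R partner (22.7%, exact interval 7.82 to 45.4), against 11% of the whole WT list. Here too both intervals held the share of the list, with the same limits. Of the 9 WT peaks under 300, 4 were without an H1047R partner, against 35.9% of all such WT peaks. Between the knock-ins, 1 of 15 E545K peaks lacked an H1047R partner (9.14% of the whole list) and 4 of 19 H1047R peaks lacked an E545K partner (23.6%). In the upper 50% of a list by area, no APOL peak lacked a partner in any of these pairs (5 such peaks in E545K, 6 in H1047R and 7 in WT). In the whole lists the shares among such peaks were 2.55% of E545K without WT and 2.13% of WT without E545K, 2.95% of H1047R without WT and 1.4% of WT without H1047R, and 1.6% of E545K without H1047R and 2.87% of H1047R without E545K.

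**Figure D2:**
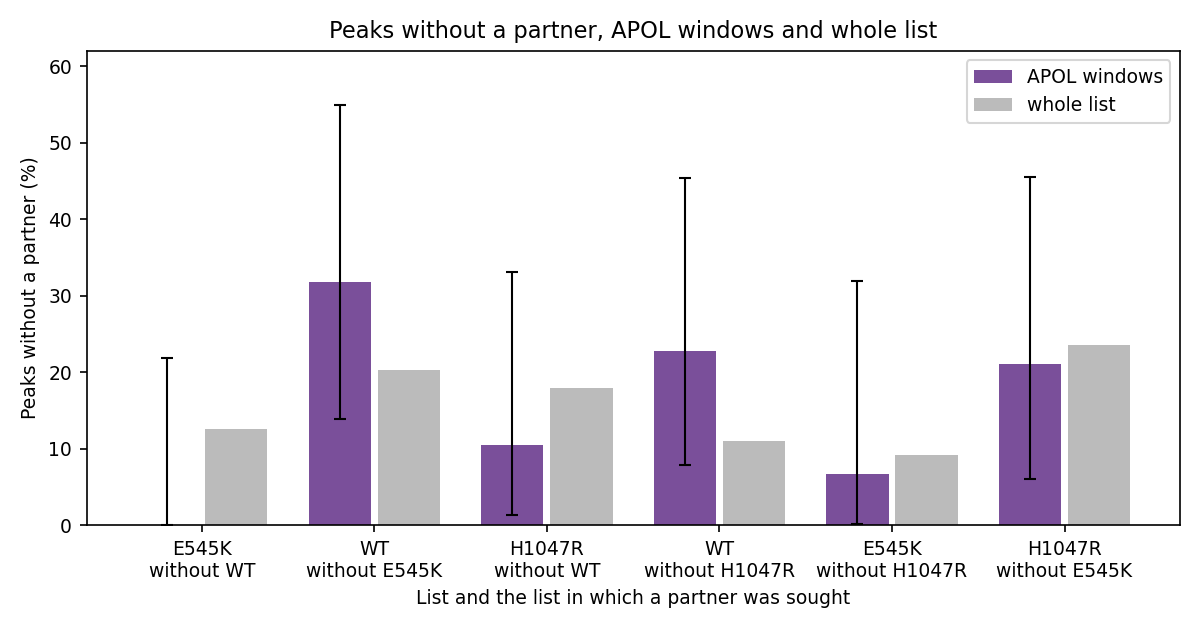
Share of peaks without a partner (vertical axis, percent) for each ordered pair of lists, with purple bars for the APOL windows, exact 95% intervals as error bars, and grey bars for the whole list. Each interval holds the grey value beside it, from 0 of 15 E545K peaks without a WT partner (12.6% of the list) to 7 of 22 WT peaks without an E545K partner (20.3%). The intervals are wide and treat neighbouring peaks as independent, so they do not show likeness to the list.

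Peaks called in 1 list alone lay at APOL5, APOL3, APOL4 and RBFOX2. The H1047R-only peak (chr22:35728999-35729309, area 264) lay in an intron near the end of APOL5. The WT-only peaks were 1 in an intron of APOL3 (chr22:36145152-36145499, area 279), 1 between APOL3 and APOL4 (chr22:36184747-36184976, area 203), 1 in an untranslated exon part of APOL4 (chr22:36195019-36195245, area 205) and 1 in an untranslated exon part of RBFOX2 (chr22:35742869-35743122, area 372). They stood at the 12.4 percentile of the H1047R list and between the 0.655 and 27.3 percentile of the WT list. The smallest area in any list was 200. The peaks missing in E545K alone were the one over the internal APOL3 starts, one in an exon of the long noncoding RNA gene ENSG00000288778 between APOL4 and APOL2 (chr22:36221883-36222071, area 238 in H1047R and 216 in WT), and one between APOL1 and MYH9 (chr22:36276175-36276957, area 230 in H1047R and 278 in WT). H1047R alone lacked a peak in an intron of MB, the myoglobin gene beside APOL6 (chr22:35630517-35630775, area 227 in E545K and 205 in WT).

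**Figure D3:**
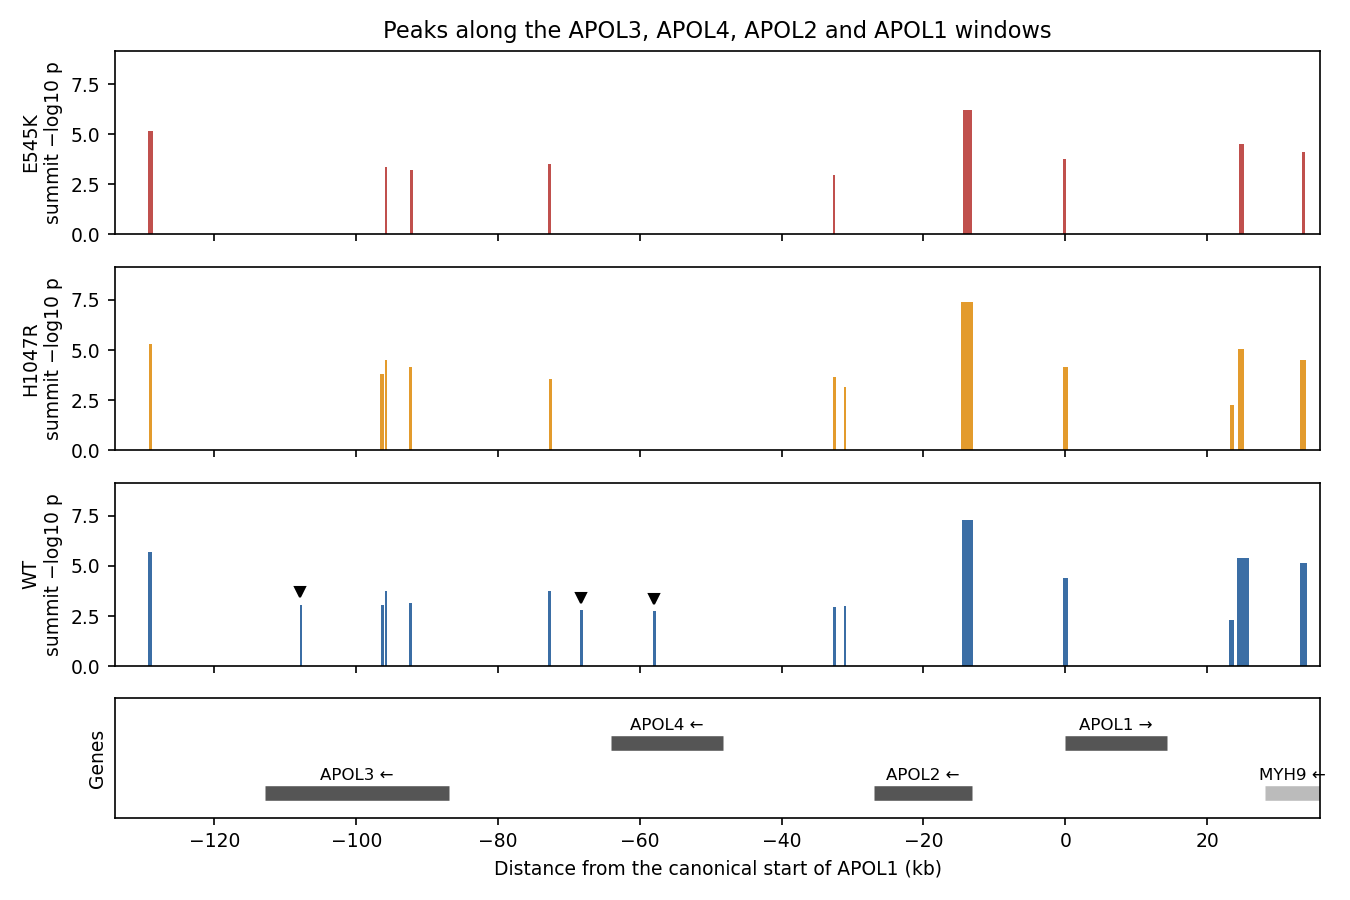
Peaks along the windows of APOL3, APOL4, APOL2 and APOL1, in rows for the E545K, H1047R and WT lists, with distance from the APOL1 start in kb on the horizontal axis and the authors' summit -log10 p as bar height. Bars span the peaks, drawn at least 0.35 kb wide, triangles mark peaks with no partner in either other list, and gene bodies are shown at the bottom. The 3 triangles are all in WT, and the APOL2 promoter peak is the highest bar of each row.

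**Figure D4:**
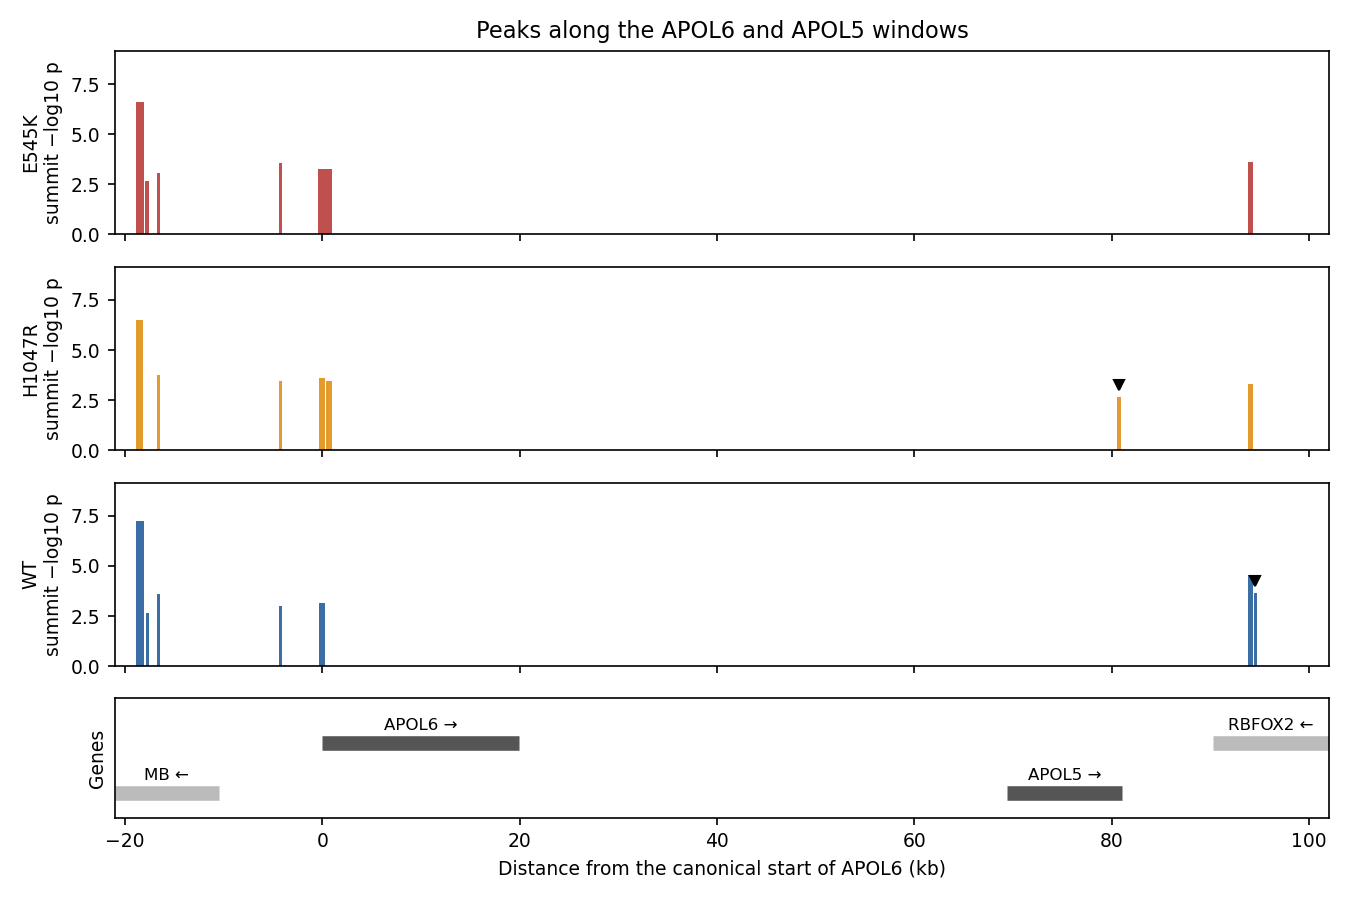
Peaks along the windows of APOL6 and APOL5, drawn as bars spanning each peak with the authors' summit -log10 p as height, in rows for the E545K, H1047R and WT lists, against distance from the APOL6 start in kb. At the APOL6 start a wide bar in E545K and a pair of bars in H1047R stand where WT has 1 narrow bar, and triangles mark the H1047R-only peak in APOL5 and the WT-only peak in RBFOX2.

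The sequences at the summits of a few regions away from any annotated start or exon are shown, because they are the elements that appeared in 1 list only, or that carried the largest areas outside the promoters. Each covers 101 bases of the hg38 plus strand, the strongest summit and 50 bases on either side, in lower case, with matches to a searched motif in capitals.
APOL3 intron, WT only, chr22:36145210-36145310: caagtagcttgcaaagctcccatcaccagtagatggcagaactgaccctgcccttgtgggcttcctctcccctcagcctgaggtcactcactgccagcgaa
between APOL3 and APOL4, WT only, chr22:36184801-36184901: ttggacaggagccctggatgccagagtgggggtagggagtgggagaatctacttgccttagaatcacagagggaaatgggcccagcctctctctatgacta
APOL5 intron, H1047R only, chr22:35729091-35729191: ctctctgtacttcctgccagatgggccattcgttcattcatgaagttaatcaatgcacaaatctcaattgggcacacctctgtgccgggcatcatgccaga
downstream of APOL3, in each list, chr22:36124050-36124150: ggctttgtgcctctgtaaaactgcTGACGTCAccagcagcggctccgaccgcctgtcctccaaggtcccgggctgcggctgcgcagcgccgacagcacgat
between APOL1 and MYH9, in each list, chr22:36277833-36277933: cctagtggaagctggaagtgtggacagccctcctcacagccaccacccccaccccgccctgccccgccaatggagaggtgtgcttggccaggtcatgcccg
MB intron upstream of APOL6, in each list, chr22:35630014-35630114: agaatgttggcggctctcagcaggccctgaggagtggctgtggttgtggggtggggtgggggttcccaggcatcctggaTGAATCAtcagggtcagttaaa

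The motifs sought on both strands were the interferon-stimulated element GAAANNGAA, the STAT element TTCNNNGAA, the NF-κB letters GGGANNTTC, the AP-1 site TGANTCA and the TEAD site GGAATG. The cAMP response element TGACGTCA was added after a sequence was seen. Of 11 such windows at the cluster, none held the interferon-stimulated or NF-κB letters, which were found at 1.59% and 0.978% of all WT summits. Windows touching an exon or within 1 kb of an annotated start, the APOL promoters among them, were not searched. The shares of WT summits cover all summits, promoters and exons included, and so are not a like set. The region in an MB intron held an AP-1 match, TGAATCA, as did 27.1% of all WT summits. The region downstream of APOL3 held the cAMP response element, found at 0.468% of all WT summits. A TEAD match lay in the MB region without an H1047R peak (10.8% of WT summits), and a STAT match, TTCCTTGAA, in the weaker region between APOL1 and MYH9 (2.14%). No match overlapped one of another motif, and a match describes letters, not a bound site.

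Peaks shared by all lists allowed a comparison of strength. Regions with exactly 1 peak of each list, 69662 over the series and 13 at the cluster, received a percentile rank by area in every list, and a difference in that rank was called at 10 points. The knock-in comparisons share the WT list, so their values are given side by side and are not independent. In E545K against WT, 1 of the 13 regions ranked higher and 3 lower by 10 points, where 17.1% and 17.7% of all shared regions did. In H1047R against WT, 2 ranked higher and 4 lower, where 17.6% and 18.3% did. Either way this made 4 and 6 of 13, beside 34.8% and 35.9% of all shared regions, so neither count stood more than 2 regions from the share of the lists as a whole. That share depends on rank: at a mean rank of 20 to 40 it was 56.8% in E545K against WT and 58.1% in H1047R against WT, at 40 to 60 it was 47.4% and 49.6%, and at 80 to 100 only 2.19% and 3.10%. The median difference was 1.16 points in E545K and -4.84 in H1047R against WT, beside -0.29 and -0.24 over all shared regions.

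By area, the 3 regions that ranked at least 10 points lower in both knock-ins lay side by side at the APOL1 end of the cluster. The share of all shared regions that ranked lower in both knock-ins at once was not computed, so this count has no background. The APOL1 promoter ranked at 29.8 in E545K, 27.7 in H1047R and 40.6 in WT, differences from WT of -10.8 and -12.9 points. Among shared regions it thus stood lowest in H1047R, whereas within each whole list its percentile was lowest in E545K. The region between APOL1 and MYH9 (chr22:36277306-36279033) ranked at 51.7 in E545K, 50.9 in H1047R and 68.0 in WT, differences of -16.4 and -17.1. The region inside the 3' part of MYH9, the gene of a non-muscle myosin heavy chain (chr22:36286221-36287178), ranked at 43.3 in E545K, 37.5 in H1047R and 56.1 in WT, differences of -12.8 and -18.5. The width of these peaks moved with their area: the peak between APOL1 and MYH9 was 731 bp in E545K, 789 bp in H1047R and 1728 bp in WT. In MYH9 the peak was 507 bp in E545K, 843 bp in H1047R and 958 bp in WT. Ranked by summit -log10 p, the APOL1 promoter differed from WT by -2.98 points in E545K and -7.70 in H1047R and the intergenic region by -6.29 and -5.78, all under 10 points. The MYH9 region still differed by -11.3 and -14.7 points. By summit value, the other region at least 10 points lower in both knock-ins was the one in RBFOX2, near APOL5. The part of peak width in the result by area was not tested. These regions lie at mean ranks of 20 to 60, where about every other shared region differed by that much in either direction. At 20 to 40, the lower quartile of all differences was -12.3 points in E545K and -12.6 in H1047R. Those quartiles were beyond or close to the differences of the APOL1 promoter. At 40 to 60, where the intergenic and MYH9 regions lie, the lower quartile was -9.83 and -10.1 points, and both regions stood lower than that.

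At APOL3, by area, regions ranked at least 10 points higher than WT in H1047R and not in E545K. The canonical start ranked at 14.7 in E545K, 30.9 in H1047R and 11.5 in WT, a difference from WT of 3.22 points in E545K and 19.4 in H1047R, which became 10.7 and 23.4 by summit value, past the limit in E545K as well. The region just upstream of the internal starts ranked at 11.3 in E545K, 20.0 in H1047R and 9.51 in WT, a difference of 1.78 and 10.5 points, or 1.13 and 18.7 by summit value. Both sites thus stood higher in H1047R by either measure. With the areas of all peaks in a shared region summed, the region upstream of the internal starts differed by 9.91 points in H1047R, just under the limit.

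The APOL6 and APOL5 windows held the remaining differences. A region 4.3 kb upstream of the APOL6 start (chr22:35644027-35644310) ranked at 22.4 in E545K, 12.2 in H1047R and 4.71 in WT, or 17.7 and 7.46 points above WT. The APOL6 promoter, which held more than 1 H1047R peak, could be ranked only over all shared regions with areas summed, at 59.5 in E545K, 52.4 in H1047R and 31.0 in WT. Both sites at APOL6 therefore ranked higher by area in the knock-ins. At the promoter the highest summit -log10 p was 3.28 in E545K, 3.63 in H1047R and 3.13 in WT. Area per bp there was 0.731 in E545K, 1.17 and 0.589 in the H1047R pair and 1.00 in WT. The part of peak width in this rank was not tested. By contrast, the region in RBFOX2 within the APOL5 window (chr22:35742238-35742759) stood lowest in H1047R. It ranked at 38.1 in E545K, 15.0 in H1047R and 46.2 in WT, differences of -8.04 and -31.2 points, or -12.8 and -34.1 by summit value. The other 6 shared regions, the APOL2 promoter among them (78.9 in E545K, 85.2 in H1047R and 84.9 in WT), stayed within 10 points of WT in both knock-ins by area. One of them, chr22:36220377-36220659, was 9.54 points above WT in H1047R by area and 14.4 by summit value. In E545K against H1047R, 3 regions ranked higher and 1 lower by 10 points (17.2% and 17% of all shared regions, 34.3% either way), the lower one being the APOL3 start at -16.2 points. The summits of all 13 regions lay within 50 bp of the WT summit in both knock-ins, as did 90.0% of E545K and 89.9% of H1047R summits over all shared regions.

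**Figure D5:**
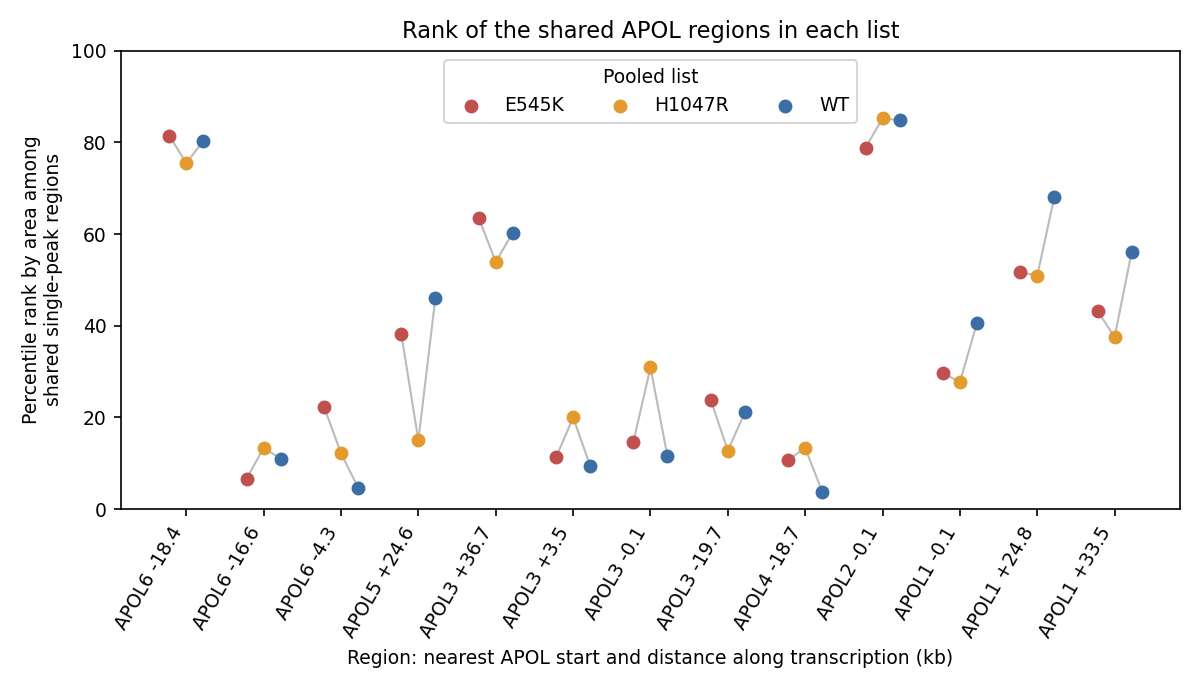
Percentile rank by area (vertical axis) of the 13 shared APOL regions among all 69662 shared regions with exactly 1 peak of each list, with points for E545K, H1047R and WT joined by grey lines only to group them. The horizontal axis names each region by its nearest APOL start and its distance along transcription in kb. The last 3 regions, at APOL1 and MYH9, stand lower in both knock-ins than in WT, and the pair at the APOL3 canonical and internal starts stands highest in H1047R.

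Neighbouring genes did not all follow the APOL1 end. The 10 shared regions on MYH9 had a median difference from WT of -2.46 points in E545K and -20.6 in H1047R, with 2 of the 10 lower and 1 higher by 10 points in E545K and 7 lower and 2 higher in H1047R, beside 17.7% lower and 17.1% higher, and 18.3% lower and 17.6% higher, of all shared regions. TXN2, the gene of mitochondrial thioredoxin beyond MYH9, had 4 shared regions with medians of -11.1 and -14.0. The 9 shared regions on RBFOX2 had medians of -2.73 and -4.80, and the 3 on MB 1.16 and 2.36. The MYH9, RBFOX2 and MB values include regions inside the APOL windows that were also counted among the shared APOL regions, so they are not separate from them. RASD2, a small GTPase gene beyond MB, had 1, at 8.67 and 9.03 points above WT. At the window edges, a peak 539 to 547 bp past the APOL6 window was called in E545K (area 347) and H1047R (area 332) and not in WT. A larger peak 337 to 440 bp before that window was present throughout, its area 2342 in E545K, 2245 in H1047R and 1915 in WT. Nearest inside that window, the peaks in the MB intron had areas of 2091 in E545K, 1899 in H1047R and 2229 in WT. Farther out, the first knock-in peaks past the APOL1 window, at 4484 to 4618 bp, also lacked a WT partner. Their area was 200 in E545K and 291 in H1047R. The same held for the first knock-in peaks before the APOL3 window, at 36008 to 36066 bp, with areas of 265 and 539.

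Summed area per window was ranked over all genes, which placed every member below the median gene. A window spans the gene body plus 20 kb on each side, so its sum depends on gene length, which was not adjusted for. The members are 11612 to 25849 bp long. APOL1 had the widest range, at the 31.3 percentile in E545K, 34.6 in H1047R and 41.3 in WT, and APOL6 the next, at 33.3, 25.6 and 26.4. The APOL1 window also holds the APOL2 promoter peak and peaks toward and within MYH9. Its summed area was 3683 in E545K, 5278 in H1047R and 6132 in WT. Of that, the APOL2 promoter peak gave 1873, 2847 and 2737, and the APOL1 promoter peak 440, 562 and 694. APOL2 lay at 24 in E545K, 27.5 in H1047R and 28.1 in WT, and APOL3 at 20.4, 21.6 and 22.7 in the same lists. APOL4 and APOL5 lay lowest, between 10.4 and 14.4. The genes whose ranks over the 3 lists were most like those of APOL1 were TMEM33, with a summed absolute difference of 1.74 points, PNO1 with 2.48 and ZNF652 with 2.52. This likeness rests on 3 pooled lists.

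Fixed gene lists were set beside the 65.5% of all promoters that had a peak in each list. They held regulators of interferon and NF-κB responses, genes of cytosolic defence and trypanolysis, and apolipoprotein genes outside the cluster. Of 20 regulators of interferon and NF-κB responses, 19 had a promoter peak in each list and 1, IRF8, in none. The promoter peaks of IRF2, an interferon regulatory factor gene, had areas of 7739 in E545K, 9208 in H1047R and 6325 in WT, and those of NFKB2, an NF-κB subunit gene, 8532, 9657 and 8557 in the same lists. TNFRSF1A, the main receptor gene for tumour necrosis factor, had 7871 in E545K, 4891 in H1047R and 17502 in WT, and CEBPB 6866, 7978 and 8145. Among 12 genes of cytosolic defence and trypanolysis, 7 had a promoter peak in each list, 4 in none (GBP4, GBP7, HP and HPR) and 1 in some lists. That 1 was APOA1, the main protein of high-density lipoprotein, with an area of 1084 in E545K, 1316 in H1047R and no promoter peak in WT. GBP1, an interferon-induced GTPase gene, had 3019 in E545K, 1305 in H1047R and 3075 in WT, SCARB1, a lipoprotein receptor gene, had 3193, 3635 and 3122 in the same lists, and PLA2G15, a lysosomal phospholipase gene, 2496, 3214 and 2920. Of 14 further autosomal apolipoprotein genes outside the cluster, 5 had a promoter peak in each list (APOA5, APOC1, APOE, APOLD1 and CLU) and 9 in none. CLU, the clusterin gene, had the largest, with 2787 in E545K, 2888 in H1047R and 3186 in WT, and APOE had 664, 1425 and 1073 in the same lists.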

How the data were processed

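Open chromatin was profiled by ATAC-seq in 2 samples each of E545K, H1047R and WT cells. Per the submitters' processing notes, reads were trimmed with Trim Galore 0.4.0, alignments to hg38 handled with SAMtools and peaks called with Genrich 0.6.1, and both samples of a genotype share 1 list. For the aligner, the sources used here give no name. The deposited area of a peak is a score of the authors' peak caller, and the deposited summit value is its -log10 p. Both depend on depth, which is unknown, and served only to describe and rank peaks within a list. The capped score column and the empty column of adjusted values were not used.

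Members and gene lists were chosen with earlier results of these data known, and all 6 members are named. Neighbours were the coding genes overlapping or next to the windows, and lists name up to 4 genes, those with a promoter peak in some lists first, then by area. No test was made. Overlaps were computed in Python 3.11.15 with pandas 2.3.3 and matched bedtools 2.31.1 in 6 of 6 counts. Ranks were checked on simulated areas with planted changes, and partners on a list with peaks removed. These checks concern the code and not how much real lists vary. Regions joined touching peaks across the lists. Genes came from GENCODE release 44, and no peak passed the end of an hg38 chromosome. Alternatives changed the window, promoter, overlap, peak threshold, list length and ranking value.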

Additional observations from a re-analysis of the deposited data

How the results depend on the processing

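Counts were small, so many moved by over 1.5 times with a setting, and some orders between lists turned round. Peaks per list (15 in E545K, 19 in H1047R and 22 in WT) became 5, 8 and 8 on gene bodies alone and 5, 6 and 7 in the upper 50% by area. In lists cut to equal length they were 15 in E545K, 16 in H1047R and 17 in WT, closer to each other than in the full lists. With 50 kb on each side they became 22 in E545K, 34 in H1047R and 28 in WT, so that H1047R and not WT had the most. Peaks without a partner numbered 0 in E545K and 7 in WT, 2 in H1047R and 5 in WT, and 1 in E545K and 4 in H1047R for the 3 pairs. In the upper 50% by area, and by summit -log10 p, all of these were 0. With lists of equal length (89416 peaks) 1 E545K peak lacked a WT partner, 3 WT peaks an E545K partner, 3 WT peaks an H1047R partner and 1 H1047R peak an E545K partner. On gene bodies alone, 3 WT peaks lacked an E545K and 2 an H1047R partner, 0 E545K peaks an H1047R and 2 H1047R peaks an E545K partner. With 50 kb, 2 E545K peaks lacked a WT partner, 11 H1047R peaks lacked a WT partner against 5 WT peaks without an H1047R partner, the other way round from 2 and 5, and 11 H1047R peaks lacked an E545K partner. With an overlap of 50% of the peak, 1 E545K peak lacked a WT partner. With partners within 500 bp, 1 H1047R peak lacked a WT, 3 WT peaks an H1047R and 0 E545K peaks an H1047R partner. In the upper 50% by area, 2 promoters had a peak in each list in place of 4.

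Regions past the rank difference (4 in E545K and WT, 6 in H1047R and WT, 4 in E545K and H1047R) became 0, 1 and 1 at 20 points and 1, 3 and 1 on gene bodies alone. The median differences of 1.16, -4.84 and 2.09 points became 0.16, -5.78 and 3.48 by summit value and 1.33, -2.44 and 3.73 with all shared regions. The cause of these moves was not tested beyond the smaller number of peaks that stricter settings leave. No paired analysis was possible because the lists pool both samples of a genotype, and for the same reason no sample could be left out. Depth is unknown, so a peak missing from a list may lie under the caller's limit.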
